A study of Mus musculus with 249 samples.

Results

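Mouse chromosome 5 was followed here through genome architecture mapping (GAM), as the 3739 windows of 40 kb listed for it from the 3 Mb position on (chr5:3000001-152537259, assembly mm9), out of 68162 windows in the whole table and beside 56652 windows of the other 18 autosomes, counted from the same position. The chromosome was selected on the measured percent of its windows positive by experiment, so that contrast, and the counts of single windows in it, are given as a description that supports nothing. The 249 libraries came from 46C, a line of embryonic stem cells derived from 129/Ola mice with a fluorescent reporter at Sox1, and all libraries share that line. For each library, 4 slices of cells (cellular profiles) were taken from thin cryosections by laser microdissection into 1 tube, and their DNA was amplified and sequenced together. Since not every slice of a cell passes through its nucleus, a tube held fewer slices of nuclei (nuclear profiles) on average. A window was called positive or not in each library, and the number of reads behind a call is unknown.

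The titles of the samples divide the libraries into 11 experiments and 20 groups. The full collection held 54 libraries from sections stained with cresyl violet, a dye that makes cell outlines visible for dissection without telling nucleus from cytoplasm. Cresyl violet was also compared in 16 stained against 10 unstained libraries, while the tests of propidium iodide (20 libraries), eosin (18) and SYBR Gold (10) were represented by libraries titled unstained. The titles of the propidium iodide test name staining and freezing, and do not say whether these 20 libraries were frozen. The amplification chemistry was varied in volume in protocols a (10 libraries), b (11) and c (10), in kit size (11 large, 12 small), in proteinase K (1 µl in 5 libraries, 2 µl in 6) and in PCR cycles (25 in 3 libraries, 23 in 5 and 20 in 4). Freezing was varied after the lysis incubation (10 frozen, 11 unfrozen) and before it (12 early, 11 late). The protocol text describes SYBR Gold staining for the libraries titled unstained, and gives smaller proteinase K volumes than the titles, and the titles were followed. Every experiment had plates of its own, so experiment and plate cannot be told apart. Nothing in the labels says which libraries come from separate cultures, so p-values measure the spread between tubes.

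Chromosome 5 carries genes of very different character. Its developmental regulators include Shh, a secreted signal that patterns limbs and neural tube, the receptor genes Pdgfra, Kit and Kdr that lie side by side, and the homeobox genes Pdx1 and Cdx2. It also holds clusters of tissue-specific genes, such as the caseins of milk, albumin and its relatives, CXC chemokines and the Cyp3a enzymes of drug metabolism, as well as housekeeping genes such as Actb. GAM reads proximity from co-segregation, the joint detection of windows in the same thin slices, and the share of a chromosome found in a tube depends on where the slices passed through its territory.

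These 4 stretches of the chromosome are printed here to show the kinds of sequence in windows described further on, each read from the NCBIM37 (mm9) reference on the plus strand, 5′ to 3′, in lower case with CG dinucleotides in capitals. The repeat unit at chr5:105322790-105323001 lies in the most often detected window and overlaps no annotated exon. The others are the 200 bases before the starts of genes on the plus strand, from the gene with the most libraries in 3 gene lists, Rest (chr5:77694316-77694515), Dpp6 (chr5:27143543-27143742) and Spp1 (chr5:104863937-104864136).
Repeat unit: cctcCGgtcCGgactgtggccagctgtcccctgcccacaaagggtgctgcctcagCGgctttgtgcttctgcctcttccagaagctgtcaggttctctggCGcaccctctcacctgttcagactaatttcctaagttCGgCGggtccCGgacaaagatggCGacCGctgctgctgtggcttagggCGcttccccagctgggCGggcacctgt
Rest: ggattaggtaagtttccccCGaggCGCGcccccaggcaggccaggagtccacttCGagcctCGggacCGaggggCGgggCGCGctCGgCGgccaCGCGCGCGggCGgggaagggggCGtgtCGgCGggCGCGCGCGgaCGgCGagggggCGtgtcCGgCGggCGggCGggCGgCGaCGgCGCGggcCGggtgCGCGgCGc
Dpp6: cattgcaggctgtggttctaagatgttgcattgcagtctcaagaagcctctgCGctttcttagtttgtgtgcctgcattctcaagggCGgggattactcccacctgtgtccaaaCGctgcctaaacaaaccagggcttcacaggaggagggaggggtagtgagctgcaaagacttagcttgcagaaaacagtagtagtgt
Spp1: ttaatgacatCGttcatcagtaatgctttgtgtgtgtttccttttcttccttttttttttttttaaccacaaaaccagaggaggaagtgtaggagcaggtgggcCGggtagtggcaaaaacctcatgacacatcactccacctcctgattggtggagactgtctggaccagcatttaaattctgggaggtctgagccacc

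Over all libraries, no difference in level between chromosome 5 and the other autosomes passed the test on the scale of percentage points. Its windows were positive at 19.7% ± 13.1 (SD, n = 249), against 19.9% ± 8.40 in the other autosomes pooled, a difference of -0.20 points with a standard error of 0.70. Chromosome 5 was the higher in 127 of 249 libraries (sign-flip permutation test over libraries, two-sided, adjusted p = 0.918 over 19 autosomes). Without the full collection the difference was -1.35 points (SE 0.78). As a log2 ratio of percentages (each percent plus 1) its mean was -0.30 and passed (permutation test, adjusted p = 6.3e-05), on a scale where the means of all 19 autosomes were below 0. The median library was at 0.04, with 127 of 249 above 0. A sign-flip test takes values as symmetric around 0, so with mean and median on different sides it is not read as a lower level. In contrast, single libraries ranged widely around the mean percentage. The lowest library had 0.027% of the windows, which was 1 positive window (unfrozen replicate 3, of the freezing after incubation experiment), the median library 18.1% and the highest 57.1%. Under 2% of the chromosome was positive in 19 libraries and over 40% in 21, whereas 0 of the 249 libraries were under 2% for the other autosomes pooled and 5 exceeded 40%. The difference between chromosome 5 and the rest of the same library ran from -28.1 points (large kit replicate 8, 0.936% against 29.1%) to 31.8 points (propidium iodide replicate 20, 55.7% against 24.0%), with an SD of 11.0 points. Such a spread was common to single chromosomes, whose SD ran from 9.86 to 12.4 points, and between 9 and 21 libraries were under 2% for each of them.

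**Figure D1:**
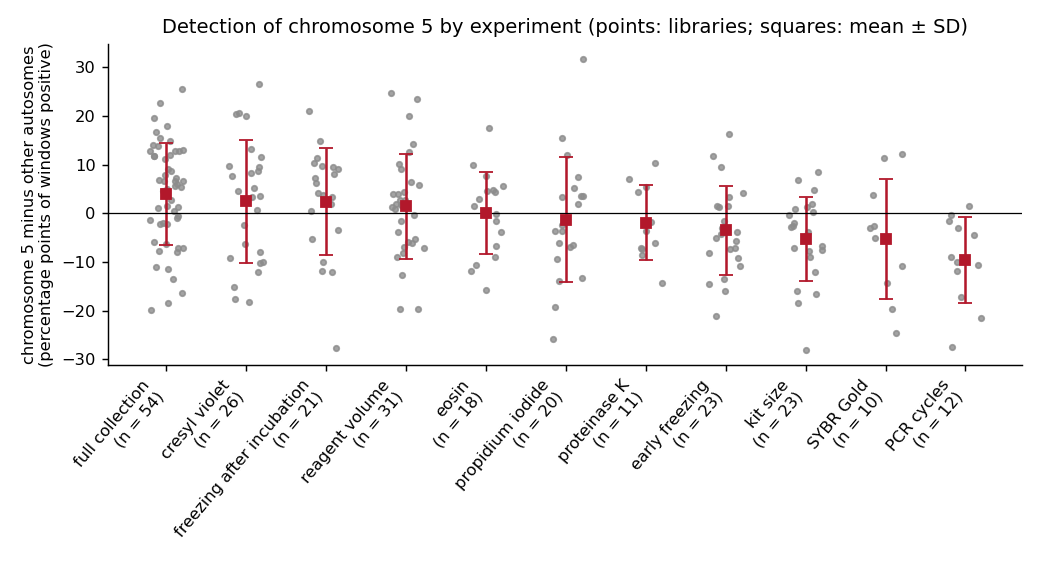
Percent of chromosome 5 windows positive minus percent of the other autosomal windows positive, in percentage points, for each library (grey points) by experiment, with the mean and SD (red squares and bars). The experiments run from a mean of 3.94 points in the full collection to -9.63 points in the PCR cycles experiment, and the libraries of all 11 experiments overlap.

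Between experiments, the mean difference went from the full collection at the top to the PCR cycles experiment at the bottom. In the full collection, chromosome 5 stood at 20.9% ± 13.5 (SD, n = 54) and the other autosomes at 16.98% ± 7.25, and the difference was 3.94 ± 10.4 points, with a lowest value of -19.8, a median of 5.39 and a highest of 25.5. It was above 0 in 36 of these 54 libraries. In the PCR cycles experiment, chromosome 5 was positive at 13.0% ± 8.18 (SD, n = 12) and the other autosomes at 22.6% ± 6.52. The difference there was -9.63 ± 8.88 points, from -27.5 to 1.42, and it was below 0 in 11 of 12 libraries. These are the values that chose the chromosome. The libraries of both experiments overlapped, because 18 of 54 in the full collection were also below 0.

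The other experiments lay between these ends. The cresyl violet test had a mean difference of 2.47 ± 12.6 points (SD, n = 26), with a median of 4.07 and a range from -18.2 to 26.5. Freezing after incubation followed with 2.39 ± 11.0 points (n = 21, median 4.15, range -27.7 to 20.97). The reagent volume libraries had 1.39 ± 10.8 points (n = 31, median 1.59, range -19.7 to 24.7). All 3 experiments had more libraries above 0 than below it. Eosin libraries were at -0.005 ± 8.45 points (n = 18, median 1.02, range -15.7 to 17.5), propidium iodide libraries at -1.34 ± 12.9 (n = 20, median -3.04, range -25.9 to 31.8) and proteinase K libraries at -1.96 ± 7.72 (n = 11, median -3.64, range -14.3 to 10.2). Early freezing had -3.54 ± 9.06 points (n = 23, median -4.23, range -21.1 to 16.3). Kit size came to -5.27 ± 8.70 points (n = 23, median -3.81, range -28.1 to 8.55), with 16 of 23 libraries below 0. SYBR Gold libraries had nearly the same mean, -5.31 ± 12.3 points (n = 10, median -4.11, range -24.7 to 12.1). The order of neighbours in this list is not a result, since their means differed by far less than 1 SD.

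The between-experiment F statistic, which compares the variance of the experiment means with that of the libraries within experiments, was 3.23 for chromosome 5. That was the highest of the 19 autosomes, followed by chromosome 7 with 2.36, and the median over autosomes was 1.25. Experiment accounted for 11.96% of the variance of the difference between libraries. Without the full collection the F statistic was 2.39 over 195 libraries, and without the PCR cycles experiment it was 2.43 over 237. On the scale of a log2 ratio of percentages (each percent plus 1), it was 1.89, and the mean of the full collection turned to -0.033.

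**Figure D2:**
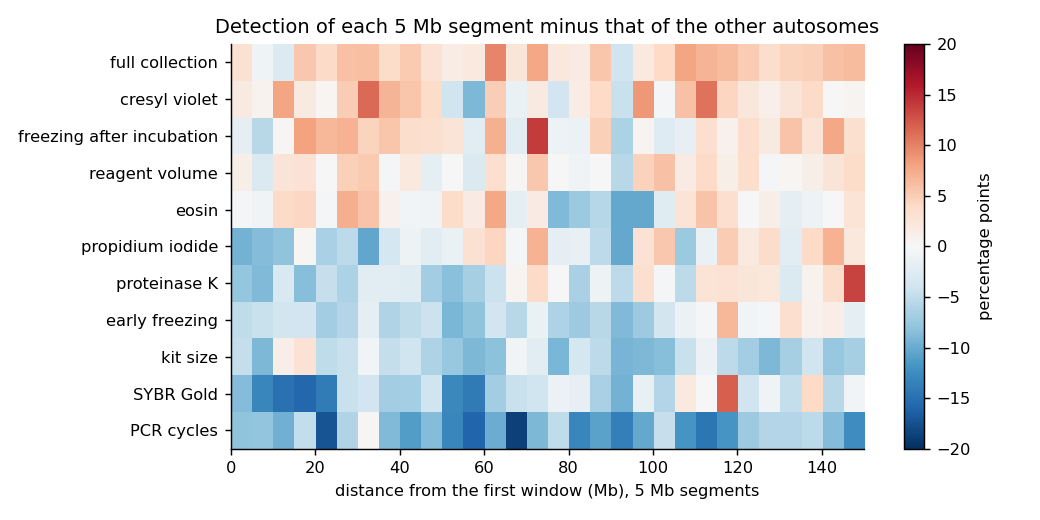
Percent positive of each 5 Mb segment of chromosome 5 minus the percent positive of the other autosomes, in percentage points (colour), for the 11 experiments (1 strip each, ordered by their mean) along the distance from the first window. The PCR cycles strip is below 0 in 29 of 30 segments and the full collection strip is above 0 in 27, while SYBR Gold goes from -15.7 near the start to 11.97 further on.

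The differences of the full collection and of the PCR cycles experiment, which chose the chromosome, are described by segment without further reading. The chromosome was divided into 30 segments of 5 Mb, and the segment difference of the full collection exceeded that of the remaining libraries in 29 of them, by a median of 5.06 points and a range from -1.88 to 9.28. The PCR cycles experiment was below the mean of the remaining libraries pooled in 30 of 30 segments, though not below each experiment, with a median of -9.73 points (range -18.3 to -2.53). Segments of 1 chromosome come from the same nuclei and are not independent of each other. For the PCR cycles libraries the lowest segment was 68 to 73 Mb, where 3.87% of windows were positive, and the highest was 33 to 38 Mb with 22.8%. The full collection was highest at 63 to 68 Mb, with 26.7% of windows positive.

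Other experiments were uneven along the chromosome. In the SYBR Gold libraries, 2.24% of windows were positive at 18 to 23 Mb but 29.9% at 118 to 123 Mb, a change from -15.7 to 11.97 points relative to the other autosomes. The proteinase K libraries went from -8.80 points at 8 to 13 Mb to 13.4 points in the last segment, from 148 Mb to the end, where 28.8% of windows were positive. Kit size, with 23 libraries, was the flattest but 1, with a range of 12.2 points between its lowest and highest segments, and stayed below 0 in 28 of 30 segments. The reagent volume experiment had the smallest range, 11.5 points over 31 libraries. The largest ranges were 27.7 points in 10 SYBR Gold libraries and 22.2 points in 11 proteinase K libraries, followed by 20.3 points in 21 libraries of freezing after incubation and 20.2 in 26 of the cresyl violet test. The 12 PCR cycles libraries had 18.9 points.

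Within experiments, no pair of protocol arms passed the test for the detection of chromosome 5. Of the 11 pairs of arms in 7 experiments, 0 passed an adjusted p of 0.05 (permutation test of the difference of means, two-sided, exact where an arm had fewer than 10 libraries), 0 had an unadjusted p under 0.05, and the smallest adjusted p was 0.943. The arms of every pair overlapped. The lowest unadjusted p belonged to proteinase K, the protease that frees DNA from protein before amplification. With 1 µl, the differences of the 5 libraries from the other autosomes were -6.10, -7.04, -1.74, -8.65 and -7.27 points, all below 0. With 2 µl, the 6 libraries had 5.47, 7.07, -3.64, -14.3, 4.34 and 10.2 points. The arm with 2 µl was 7.69 points higher (exact permutation test, p = 0.102, adjusted p = 0.943), and its lowest library was below every library of the other arm. Without that library (replicate 4) the difference was 10.9 points (exact permutation test, adjusted p = 0.175).

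For the number of PCR cycles, the 4 libraries with 20 cycles had differences of -9.97, -3.03, -0.37 and -4.52 points. The 5 libraries with 23 cycles had -27.5, -17.3, -8.89, 1.42 and -11.8 points, and the 3 libraries with 25 cycles had -10.6, -21.6 and -1.57 points. The mean was -4.47 points with 20 cycles, -12.8 with 23 and -11.2 with 25, but the arms overlapped. The difference of 23 against 20 cycles was -8.33 points (exact permutation test, p = 0.198) and that of 25 against 20 cycles -6.76 points (exact permutation test, p = 0.286, with 0.0286 the smallest this pair can reach). Leaving out 1 library at a time moved the first from -11.9 to -4.65 points and the second from -11.6 to -1.59 points. Stained minus unstained in the cresyl violet test was -3.18 points (-5.64 to -0.73 leaving out 1 library at a time), and large minus small kit was 2.83 points (1.77 to 5.27, the highest without large kit replicate 8). The kit contrast turned its sign as a log2 ratio of percentages. Early minus late freezing was 1.03 points and frozen minus unfrozen after incubation 1.55 points, each of the 4 with an adjusted p of 0.943. Both freezing contrasts had no settled direction, as they went to -0.68 points without late replicate 2 and to -1.38 points without unfrozen replicate 1, and turned with medians in place of means.

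Single windows gave no call either. Early and late freezing were compared by Fisher's exact test per window, with Benjamini-Hochberg adjustment over the whole table. Of 3324 chromosome 5 windows tested, 0 passed (smallest adjusted p = 0.804), beside 0% of all windows. With arms of 12 and 11 libraries, here and for the kits, a lone window could pass only by separating the arms almost completely. The 0 calls therefore do not show that windows were alike. At an unadjusted p under 0.05 there were 191 windows (5.75%), beside 4.69% of the 58871 windows of the table. Of these, 186 (5.60%) were higher with early freezing, beside 4.53% of the table, and 5 were lower, beside 0.165%. This direction was lost when libraries were stratified by coverage (Cochran-Mantel-Haenszel test), with 47 windows higher (1.41%, beside 2.46% of the table) and 58 lower (1.74%, beside 2.34%). Between the small and the large kit, 0 of 2644 windows passed the adjusted threshold, and 59 (2.23%) had an unadjusted p under 0.05, beside 3.25% of all windows. Of these, 51 were higher with the small kit, beside 2.91% of the table, and 8 were lower, beside 0.343%. The stratified test turned this to 3 higher (0.113%, beside 0.369% of the table) and 79 lower (2.99%, beside 5.02%), so that the turn was found over the whole table. For the full collection against the other 195 libraries, whose contrast chose the chromosome, the same counts are a description only, since the choice fixed their direction. By Fisher's exact test, 0 of 3678 windows passed and 150 (4.08%) had an unadjusted p under 0.05, beside 6.59% of the table. Of these, 120 were higher in the full collection, beside 0.527% of the table, and 30 lower, beside 6.06%. Stratified by coverage, the 150 became 392 (10.7%), beside 5.53% of the table.

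**Figure D3:**
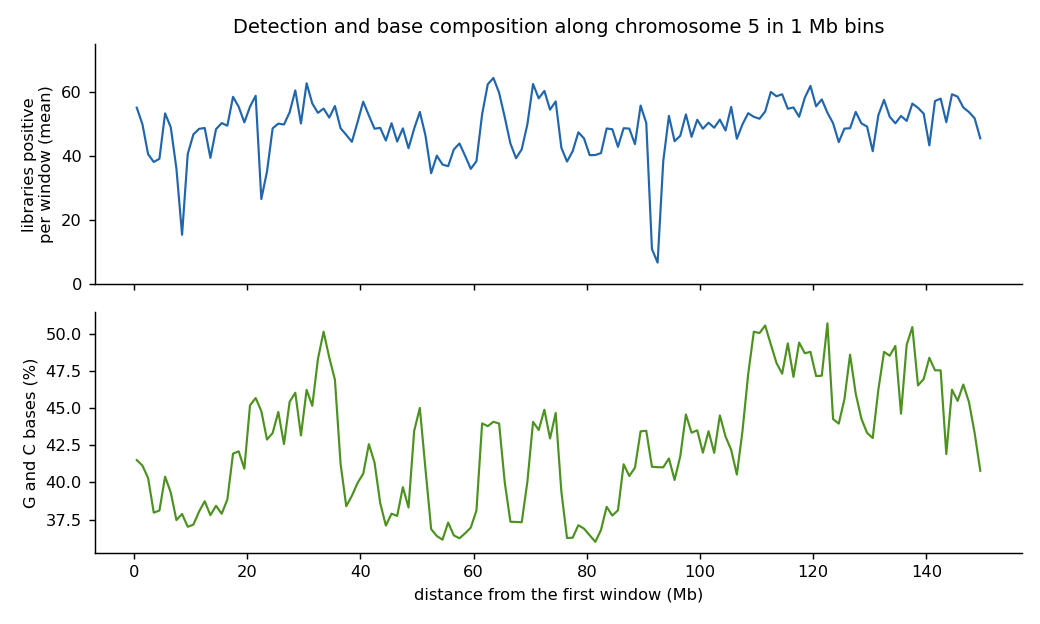
Mean number of libraries positive per window (upper panel, of 249) and percent of G and C bases (lower panel) in bins of 1 Mb, against the distance from the first window of chromosome 5. Detection lies near the median of 50 libraries over most of the chromosome and drops in a few bins, of which the deepest are 2 neighbours more than 90 Mb from the first window.

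Along the chromosome, a window was positive in a median of 50 libraries, the same as on the other autosomes. Of the 3739 windows, 3622 (96.9%) were positive in 25 libraries or more, 74 in 1 to 24 and 43 never. The first 5 Mb had 44.6 ± 9.48 libraries per window (SD, 125 windows) and the last 5 Mb 54.3 ± 7.21. Detection rose with the content of G and C bases. Over 3611 of these 3622 windows (the other 11 had too few known bases), Pearson's r was 0.48 and Spearman's rho 0.54, across windows, which are not independent replicates and share libraries. The tenth of windows with the lowest G and C content (35.9% on average) was positive in 41.3 ± 6.75 libraries, against 54.4 ± 6.18 in the tenth with the highest (50.9%). The 939 windows that hold the start of a protein-coding gene had 54.8 ± 8.45 libraries, and the 2672 without one had 48.8 ± 8.96.

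The gene lists are described by their medians, with no test between them, and their members overlap in range. At the window of the gene start, the 16 genes of the housekeeping list had a median of 61.5 libraries (window G and C content 46.4%), and 14 of them were above the chromosome median of 50. Rest led with 81 libraries (18 in the full collection and 63 in the others). It encodes a repressor of neuronal genes and counts as housekeeping only by its place in this list. Polr2b followed with 77, and Actb, the cytoskeletal actin gene, had 67. Cct6a, a subunit of the chaperonin that folds actin and tubulin, was the lowest with 46. The 24 developmental regulators had a median of 55.5 libraries (48.1% G and C) and 17 above the chromosome median. Among them, Pdgfra and Kit had 65 libraries each and Shh 48. The 20 long neuronal or adhesion genes had a median of 48 libraries (40.02% G and C), with 5 above the chromosome median. Dpp6, a subunit that modulates potassium channels, had 59 at its start but 47.7 on average over its body, and Sema3d, a secreted guidance cue, 39. The 33 tissue-specific genes that were found had a median of 43 (41.4% G and C), with 11 above the chromosome median, in 28 different windows. Spp1, which encodes osteopontin, had 62 libraries, Alb 41, and the casein gene Csn1s2b 33.

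The sequence just before these gene starts fell in the same order of lists. In the 200 bases upstream, the housekeeping genes had a median of 16 CG dinucleotides and the developmental regulators 10.5, against 7.5 for the long neuronal or adhesion genes and 1 for the tissue-specific genes. The median over the 1309 protein-coding genes of the chromosome was 10, and 50.0% of them had 10 or more. Of the tissue-specific genes, 0 of 33 had 10 or more. Of the sequences printed above, Rest had 39, Dpp6 3 and Spp1 2. The Rest sequence was 82.5% G and C and the Spp1 sequence 45%. A gene start window spans 40 kb, so these stretches are a small part of what was counted.

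Windows seen rarely were gathered in a few stretches. From chr5:10880001-11920000, 23 of 26 windows were positive in fewer than 25 libraries and the mean was 14.6 libraries. The stretch holds 13 annotated genes, all predicted or little described genes apart from Speer1-ps1, of the Speer family of testis genes. From chr5:94200001-96200000, 49 of 50 windows were below 25 libraries, 12 were never positive and the mean was 5.76. Its 28 genes are mostly predicted genes. From chr5:25440001-26320000, all 22 windows were never positive, and the assembly has unknown bases throughout. From chr5:143200001-143480000, 6 of 7 windows were never positive, and 62.3% of the bases are unknown.

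The stretches near 11 and 95 Mb consisted mostly of sequence that occurs more than once on the chromosome. For each window, the share of stretches of 31 bases that occur again on chromosome 5 on either strand was counted. It had a median of 6.92% in windows with 25 libraries or more, and of 96.5% in the 69 windows with 1 to 24 libraries that have known bases. Its median was 96.95% in the stretch near 11 Mb and 96.8% in the stretch near 95 Mb. Of the 117 windows under 25 libraries, 35 had mostly unknown bases and 80 of the other 82 had 20% or more recurring stretches. The converse did not hold, because 568 windows with 20% or more were positive in 25 libraries or more. Across the same 3611 windows, Spearman's rho between the recurring share and the number of libraries was -0.28. Whether reads from recurring sequence were dropped or placed elsewhere in the alignment was not tested.

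Some of the most often detected windows were also made of recurring sequence. The leading window, chr5:105320001-105360000, was positive in 119 of 249 libraries (47.8%), while the windows before and after it were positive in 43 and 47. It holds no annotated gene, and 33.7% of its stretches of 31 bases recur. In 78 of the 119 libraries (65.5%) neither neighbour was positive, against a median of 14.8% for windows above the minimum. The excess over the neighbours was present in all 11 experiments. Detection of the window ran from 35.2% of libraries in the full collection, where the neighbours averaged 15.7%, to 70.0% in propidium iodide, where they averaged 25.0%. The excess was smallest in reagent volume (35.5% against 24.2%) and largest in early freezing (69.6% against 15.2%). Near its start the window has a tandem repeat with a unit of 212 bases. The unit at chr5:105322790-105323001 and the next one were equal at 210 of 212 bases. The unit, printed above, was 62.7% G and C, in a window of 41.2%. Stretches with at least 95% of 300 consecutive bases equal to the base 212 positions on occurred in 69 windows of the chromosome (1.85%), with a median of 43 libraries. They were found by this spacing alone, which shorter repeats can also meet, and were not compared with the sequence of the unit. The part of the repeat in the detection of the leading window was not tested.

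The next 2 windows lie side by side, chr5:15160001-15200000 with 92 libraries and chr5:15120001-15160000 with 87. They hold Speer4d, Speer7-ps1 and 4930572O03Rik, and 79.4% and 79.6% of their stretches of 31 bases recur. Unlike the leading window, they were positive without a positive neighbour in 10.9% and 12.6% of their libraries. The 8 Speer genes annotated as protein-coding, which include Speer1-ps1 but not Speer7-ps1 (a lincRNA in the annotation), had a median of 60.5 libraries, with a range from 14 to 87. Of the 8 windows of the chromosome above 80 libraries, 5 had over 30% recurring stretches. The other 3, among them the window of Rest (chr5:77680001-77720000), had 0.935% to 5.40%. By comparison, 568 of the 3611 windows with 25 libraries or more and enough known bases had at least 20%. At the low end of the windows above the minimum, chr5:55760001-55800000 and chr5:79440001-79480000, both without a gene, and chr5:94040001-94080000, which holds C87414, were positive in 25 libraries each, as was 1 further window. Their recurring shares were 7.38%, 39.01% and 78.8%. The minimum of 25 libraries is thus met by windows of quite different sequence.

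Positive windows of chromosome 5 were mostly next to another one. In the 242 libraries with at least 20 positive windows there, 78.8% ± 15.3 (SD) of them had a positive neighbour, against 81.7% in the other autosomes pooled. The difference of -2.91 points had a standard error of 0.61 (sign-flip permutation test, two-sided, adjusted p = 1.5e-05 over 19 autosomes, of which the unadjusted p of 1e-05 is the smallest that the resamples can give). It was above 0 in 106 of 242 libraries. All 19 autosomes were below the rest, between -5.70 and -0.57 points, and 18 passed the threshold, so chromosome 5, the seventh lowest, did not stand apart. In libraries with at least 100 positive windows the difference was -1.32 points (adjusted p = 0.00324). The longest run of positive windows had a median of 0.80 Mb over the 249 libraries. It reached 4.24 Mb in the stained cresyl violet replicate 2.

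**Figure D4:**
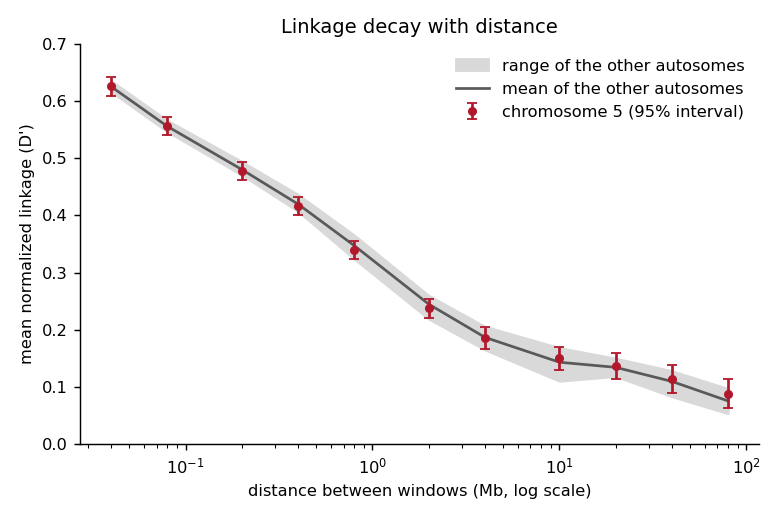
Mean normalized linkage D' of window pairs against their distance (log scale), for chromosome 5 (red points, bars are 95% intervals from the jackknife over libraries), the mean of the other autosomes (line) and their range (grey band). Chromosome 5 falls from 0.626 at 40 kb to 0.0882 at 80 Mb and stays inside the range of the others.

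Linkage between windows fell with distance. The measure was D', the excess of joint detection over what independent windows would give, scaled so that 1 is the most their detection frequencies allow. Only windows positive in at least 25 libraries entered. At 40 kb, D' was 0.626 ± 0.008 (jackknife standard error over libraries) on chromosome 5 and 0.6254 ± 0.007 on average over the 18 others. It was 0.417 ± 0.008 at 400 kb, 0.237 ± 0.009 at 2 Mb and 0.1499 ± 0.011 at 10 Mb. At 80 Mb it was still 0.088 ± 0.013. Pairs of windows on different chromosomes had a mean D' of 0.011 ± 0.011 when 1 was on chromosome 5.

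At none of the 11 distances did the 95% interval of the difference between chromosome 5 and the others exclude 0. The difference was -0.0029 at 400 kb (95% interval -0.0164 to 0.0106), -0.0076 at 2 Mb (-0.0241 to 0.0090), 0.0021 at 20 Mb (-0.0196 to 0.0239) and 0.0128 at 80 Mb (-0.0129 to 0.0386). These intervals allow for differences of up to 0.039 in size. At every distance chromosome 5 lay between the lowest and the highest of the other autosomes. With the expected co-segregation computed within each experiment, so that differences in detection between experiments add nothing, D' at 400 kb went from 0.417 to 0.396 and at 20 Mb from 0.136 to 0.124.

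**Figure D5:**
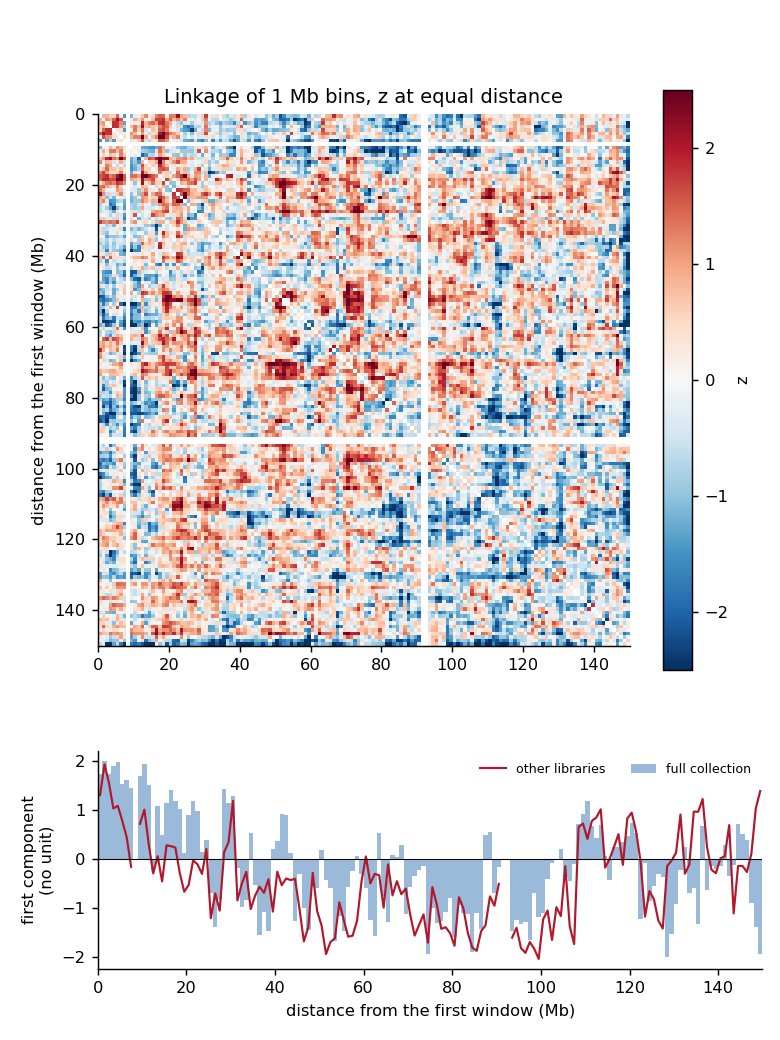
Linkage between bins of 1 Mb as z at equal distance (upper panel, both axes in Mb from the first window, white bins have too few windows) and the first component of its correlation matrix (lower panel) from the full collection (bars) and from the other libraries (line). In the longest negative block 36 of 42 measured bins are negative in both sets of libraries, and over all bins the sign is the same in 72.8%.

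Large-scale blocks were drawn from D' averaged over bins of 1 Mb, with z the deviation from the mean at the same distance in units of SD. The first principal component of the correlation matrix of these z values, which sorts bins by the regions they are linked to, took 44.3% of the variance over 147 bins. It was turned so that gene-dense bins tend to be positive, but this relation was weak, with r of 0.23 with the number of genes, 0.29 with the G and C content and 0.22 with detection, across bins. The 55 positive bins had 11.5 ± 9.77 protein-coding genes per Mb (SD) and the 92 negative ones 6.97 ± 6.61.

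The component gave 12 blocks of at least 3 bins of 1 sign, which covered 131 measured bins (a bin without a value took the sign of its neighbours). The longest was negative, from 67 to 111 Mb (42 measured bins), with 352 genes, and 36 of its bins were negative in both the full collection and the other libraries. This block holds Pdgfra, Kit, Kdr, Rest, the casein and albumin genes, the chemokine genes and Spp1. A negative block from 47 to 66 Mb (19 bins) had 2.42 genes per Mb, and holds the genes of the guidance cue Slit2 and the adhesion molecule Pcdh7. The 2 longest of the 6 positive blocks were at 3 to 22 Mb (18 measured bins, 5.32 genes per Mb, 14 with the same sign in both sets), which holds Sema3a, Sema3d, Sema3e and Magi2, and at 111 to 125 Mb (14 bins, 15.6 genes per Mb, 11 with the same sign), which holds Tbx3, Tbx5 and the Oas genes of antiviral defence. The other 4 positive blocks were short, and bins were positive in both sets in 1 of 4 at 24 to 28 Mb, 3 of 3 at 31 to 34 Mb, 1 of 4 at 137 to 141 Mb and 0 of 3 at 147 to 150 Mb. The positive side joined a gene-poor proximal stretch of 39.1% G and C with a gene-rich distal one of 48.6%. Of the 33 tissue-specific genes, 29 lay in negative bins, as did 10 of 16 housekeeping genes, 14 of 24 developmental regulators and 13 of 20 long neuronal or adhesion genes, while 641 of the 1272 protein-coding genes in measured bins (50.4%) and 92 of the 147 bins were negative. Genes of a cluster share bins and are not independent.

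The blocks were only partly shared between sets of libraries. The component of the 54 libraries of the full collection and that of the other 195 had a Pearson's r of 0.56 and a Spearman's rho of 0.54 over 147 bins. Neighbouring bins share nuclei and windows. With classes from the full collection read in the other libraries, pairs of bins of the same class were 0.18 higher in z than pairs of different classes at equal distance (jackknife SE 0.10, 95% interval -0.03 to 0.38). With classes from the other libraries read in the full collection, the difference was 0.25 (SE 0.14, -0.03 to 0.52). Both were above 0, and both intervals included 0. Bins also differed in their overall linkage. The mean z of a bin with all others ran from -1.60 in the last, incomplete bin, which has 14 windows, and -1.12 in the bin before it, to 0.94 at 73 to 74 Mb.

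The bin pairs at least 10 Mb apart with the highest z, among those above 1 in both sets, joined distant stretches of the chromosome. The leading pair was 30 to 31 Mb (19 genes) with 55 to 56 Mb (0 genes), with a mean D' of 0.247 against 0.128 for all pairs 25 Mb apart (z 3.15, 2.53 in the full collection and 2.09 in the others). Then came 51 to 52 Mb with 73 to 74 Mb (D' 0.243, z 3.11, with 2.15 and 2.01), 26 to 27 Mb with 113 to 114 Mb (0.210, z 2.75, with 1.21 and 2.498), a distance of 87 Mb, and 9 to 10 Mb with 20 to 21 Mb (0.2503, z 2.71, with 1.86 and 2.04). The bins 26 to 27 Mb and 73 to 74 Mb were also among the 3 with the highest mean z with all other bins. Of the 9478 bin pairs at these distances, 213 (2.25%) were above 1 in both sets, while 14.9% were in the full collection and 14.5% in the others, so that the share in both was close to the product of the single shares.

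Window pairs between 200 kb and 4 Mb apart were ranked by z among those above 1 in both sets of libraries. No window entered more than 1 pair, and the z values in each set were part of the choice. The leading pairs lay near the Speer genes and the most often detected windows. The first joined chr5:15200001-15240000, which holds Speer4c, to chr5:16920001-16960000, which has no gene. They were positive in 77 and 39 libraries and together in 32, where independent detection gives 12.1. D' was 0.740 ± 0.088 (jackknife SE), against a mean of 0.252 at this distance, and 0.749 in the full collection and 0.739 in the others (z 2.01 and 4.63). The second joined chr5:15160001-15200000, the window with 92 libraries, to chr5:15840001-15880000 in Cacna2d1, a calcium channel subunit gene (36 joint libraries, 14.8 from independent detection, D' 0.841 ± 0.076, with z 2.81 in the full collection and 4.16 in the others). The third joined chr5:26320001-26360000, which holds Speer4a, Gm1979 and Gm5862, to chr5:27680001-27720000 in Dpp6 (31 joint libraries against 12.5, D' 0.755 ± 0.091, z 1.64 and 4.82). The fourth joined chr5:11120001-11160000, which holds Gm8879, to chr5:15120001-15160000 with Speer4d (29 joint libraries against 13.3, D' 0.636 ± 0.104). Its D' was 0.449 in the full collection and 0.686 in the others (z 1.04 and 4.78), so it barely met the minimum of 1 in the smaller set.

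All 4 pairs had at least 1 window in which more than 50% of the stretches of 31 bases recur on the chromosome, with 52.3%, 79.4%, 69.8% and 88.1% in their first windows. By comparison, 51 of the 3611 windows with 25 libraries or more and enough known bases had at least 50%. The fourth pair also had 79.6% in its second window, and its windows shared 222 different stretches of 31 bases with each other (0.558% of those in the first), the most of the 4 pairs. The first pair shared 21, the second 57 and the third 85. The part of shared sequence in these values was not tested. In general, z values of single window pairs were hardly shared between the full collection and the other libraries, with r of 0.07 over 332941 pairs, and 2.20% of the pairs were above 1 in both. In each set alone, 11.8% and 15.0% were.

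Insulation, taken as the average D' between windows up to 400 kb before and after a position, gave 158 domain boundaries on the chromosome, with a median spacing of 840 kb. The full collection alone gave 138 and the other libraries 160. Of the former, 38 (27.5%) had a boundary of the other set within 2 windows, and of the latter 38 (23.8%). By comparison, 22.3% of all positions lay that close to a boundary of the other libraries and 19.2% to a boundary of the full collection, so the match was little above what the density of boundaries gives. The insulation score had r of 0.27 between the sets over 3576 positions. The 4 boundaries of highest prominence found in both sets were at chr5:62880001-62960000, chr5:83800001-83880000, chr5:12520001-12600000 in Sema3d and chr5:16360001-16440000, with scores of 0.246, 0.248, 0.282 and 0.288 against a mean of 0.425 ± 0.046 (SD over positions). Apart from Sema3d they hold no protein-coding gene. At the last of them the full collection alone had a score of -0.10 and the other libraries 0.31.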

How the data were processed

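The members, gene lists and tests were chosen with earlier results of these data known. Per the study's methods, the authors aligned reads to mm9 with Bowtie2 (version 2.1 in the submitters' processing notes), removed duplicates with Samtools and called windows of 40 kb with GAMtools at a threshold of 4 reads. The deposited table holds a call of 0 or 1 per window and library (no other unit), for libraries that passed the authors' quality control, so depth is unknown and no interval for counting error was given. All 249 columns were matched to labels, and 0 were left over. No 2 libraries were identical.

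Percent positive was computed over windows from 3 Mb on, on every autosome. Permutation tests used 100000 resamples or exact enumeration. D' used windows positive in at least 25 libraries, with a delete-one jackknife over libraries. Fisher's exact test took windows positive in at least 3 compared libraries. P-values were adjusted by Benjamini-Hochberg with a threshold of 0.05. Genes came from GENCODE vM1 and sequences from NCBIM37 (mm9), whose chromosome lengths equal those of the table.

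Named were the 3 most and 3 least often detected windows above the minimum, the 4 window pairs (200 kb to 4 Mb), 4 bin pairs (10 Mb or more) and 4 boundaries with the highest values found both in the full collection and in the other libraries, and listed genes. No window or bin entered more than 1 of these pairs. The windows above 80 libraries, the tandem repeat, the recurring stretches of 31 bases and the sequence shared by pairs were examined after the values were seen. On simulated calls for the full collection against the other libraries (61489 windows positive in at least 25 libraries, a stricter filter than that of the test, 200 changed by 45 percentage points), Fisher's exact test recovered 98.0% of the changed windows, with 7 false calls. The simulated windows were independent and each unchanged window had the same rate in all libraries, unlike the linked windows and uneven coverage of the data. The freezing and kit comparisons were not simulated, so this recovery does not apply to them. Python 3.11.15, NumPy 2.4.6, pandas 2.3.3, SciPy 1.17.1 and matplotlib 3.10.9 were used. Alternatives are listed in the closing section.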

Additional observations from a re-analysis of the deposited data

Results flagged for a closer look

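Among 27 combinations of groups of 4 to 10 libraries and measures that were examined for a library far from its group by Dixon's test, 2 stood apart, where chance gives about 1 in 20. In reagent volume protocol a, replicate 4 had a difference of 23.484 points between chromosome 5 and the other autosomes, with the next library at 6.345 and the lowest at -7.072. Without it the mean of the arm went from 1.80 to -0.61 points. In reagent volume protocol c, 14.286% of the positive chromosome 5 windows of replicate 4 had a positive neighbour, with the next library at 60.674% and the highest at 89.974%. That library had only 14 positive chromosome 5 windows, of which 2 had a positive neighbour, and so was below the minimum of 20 used for the comparison of neighbour shares.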

How the results depend on the processing

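No paired analysis was possible because replicate numbers here only name libraries. Of 539 alternative values, 502 kept their direction and their side of the threshold or moved by less than their error. Most of these were arm contrasts (424 of 452 the same), whose main tests did not pass. For the domain boundaries, 2 of 6 stayed the same. On the log2 ratio scale, the mean level of chromosome 5 was -0.30 (SE 0.07, sign-flip permutation test, adjusted p = 6.3e-05) in place of a difference that did not pass. Its median was 0.04, and all 19 autosomes had a mean below 0 on that scale (-0.52 to -0.07). The F statistic was then 1.89, the mean of the full collection -0.033 and large minus small kit -0.12, which reversed both. Medians in place of means reversed protocol c minus a (1.05 points), frozen minus unfrozen after incubation (-2.48) and early minus late freezing (-0.78). Protocol b minus a went to -0.48 points without libraries of under 5% coverage. Leaving out 1 library moved 25 minus 23 cycles from -3.26 to 6.73 points, reversed without replicate 1 of 23 cycles (-2.10) or replicate 3 of 25 cycles (-3.26), protocol b minus a from -2.17 to 2.52, c minus a from -3.57 to 1.001, c minus b from -3.69 to 0.76, frozen minus unfrozen from -1.38 to 3.24, early minus late from -0.68 to 3.07, stained minus unstained from -5.64 to -0.73, large minus small kit from 1.77 to 5.27, 2 minus 1 µl proteinase K from 5.95 to 10.9, 23 minus 20 cycles from -11.9 to -4.65 and 25 minus 20 cycles from -11.6 to -1.59. Over the alternatives of the arms the smallest adjusted p was 0.175, without replicate 4 of 2 µl proteinase K. With a Cochran-Mantel-Haenszel test stratified by library coverage, the chromosome 5 windows at an unadjusted p under 0.05 went from 150 to 392 for the full collection (383 of them higher, 10.4% beside 2.37% of the table, a direction that the choice of the chromosome fixed) and from 191 to 105 for early against late freezing (3.16%, beside 4.81%), with 0 adjusted calls. The stratified kit test gave 82 in place of 59, of which 3 were higher with the small kit and 79 lower, against 51 and 8. Boundaries numbered 293 with a square of 200 kb, 76 with 800 kb and 100 with a prominence of 1 SD, and with 200 kb 49.7% of those of the full collection were matched. More boundaries also place more positions close to one. No such share is given for 200 kb, so the 49.7% is not read as a closer match. The cause was not tested for any of these. All 24 counted alternative intervals of the linkage decay included 0 (values -0.0051 to 0.0047), and the block differences ran from 0.14 to 0.24. Those 24 leave out some distances, among them 2 Mb and 80 Mb. With windows positive in at least 40 libraries, the linkage difference was -0.0104 at 2 Mb (interval -0.0271 to 0.0063). At 80 Mb it was 0.0133 (-0.0115 to 0.0380). These were the lowest and the highest alternative differences over all distances, and both intervals included 0. Leaving out libraries of the arms with over 5 libraries and including the first 3 Mb of each chromosome, which gave a level of -0.12 points, were chosen after seeing the data. The unknown depth limits every call of 0, where an absent window and one with few reads look alike, and the small arms of 3 to 6 libraries limit the protocol comparisons.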
